A study of Mus musculus with 16 samples.

Results

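The genes described are 10 pattern recognition receptors of the mouse: the Toll-like receptors Tlr2, Tlr3, Tlr4, Tlr5, Tlr7, Tlr8, Tlr9 and Tlr13, the co-receptor Cd14 and the C-type lectin Clec7a. They were taken from the deposited count table by symbol, 10 of its 40324 symbols. Liver RNA was sequenced from 16 db/db mice, obese and diabetic animals whose leptin receptor does not work. The arcA group of 8 carried AAV8 encoding arcA, labelled as arcA overexpression, and the GFP group of 8 carried AAV8 encoding GFP, labelled as control. The vector was given at about 5 weeks of age to littermates, and liver was taken at 10 weeks of age, 5 weeks after injection. Both groups are thus db/db livers that received a vector, and the sources used here do not give the promoter that drove the transgene. AAV8 is a viral vector with a strong preference for liver cells. What arcA encodes is not in the labels; bacterial arginine deiminase genes carry this name, among others.

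Pattern recognition receptors bind molecules that microbes share, or that leave damaged cells. Toll-like receptors at the cell surface recognise mainly microbial lipids and proteins, those in endosomes recognise nucleic acids, and nearly all signal through the adaptor Myd88, Tlr3 through Ticam1, to NF-kappaB and interferon regulatory factors. Clec7a (Dectin-1) binds fungal beta-glucans and signals through the kinase Syk and the adaptor Card9. In liver, Kupffer cells and other myeloid cells carry many of these receptors, while hepatocytes and sinusoidal endothelial cells carry some of them.

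Of the 10 receptor genes, 6 were lower in arcA livers, none was higher, 3 did not pass the test and 1 had too few counts to be tested. Clec7a was lowest relative to GFP livers (6.61-fold), followed by Tlr2 (3.18-fold), and Tlr8, Tlr7, Tlr13 and Tlr4 were 2.37-fold to 1.56-fold lower. Tlr3, Tlr5 and Cd14 were the 3 that did not pass. These calls come from edgeR's quasi-likelihood test with Benjamini-Hochberg adjustment over 14476 genes at a threshold of 0.05, which called 10.8% of all genes, 6.57% lower and 4.26% higher. The median log2 fold change was -1.08 over the 9 receptor genes tested and 0.01 over all genes tested. The groups did not overlap for Clec7a and Tlr2, both lower in arcA livers, against 1.20% of all genes with every arcA liver below every GFP liver and 0.566% with every arcA liver above. Libraries held 37325610 to 45874797 counts in arcA and 28912563 to 53520828 in GFP livers. Reads of Gm42418, a gene over ribosomal RNA sequence, made up 2.45% to 7.37% of arcA counts and 2.29% to 19.4% of GFP counts, the highest in GFP 2, 3 and 5. Hepatocyte markers had the highest sum of the marker lists in every library, 67911 to 94658 CPM (counts per 1000000 counts) in arcA and 70481 to 82090 CPM in GFP livers, and no marker of the other liver cell types was at 0 in all libraries. In bulk tissue, fewer cells of a type and less RNA per cell cannot be told apart.

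**Figure D1:**
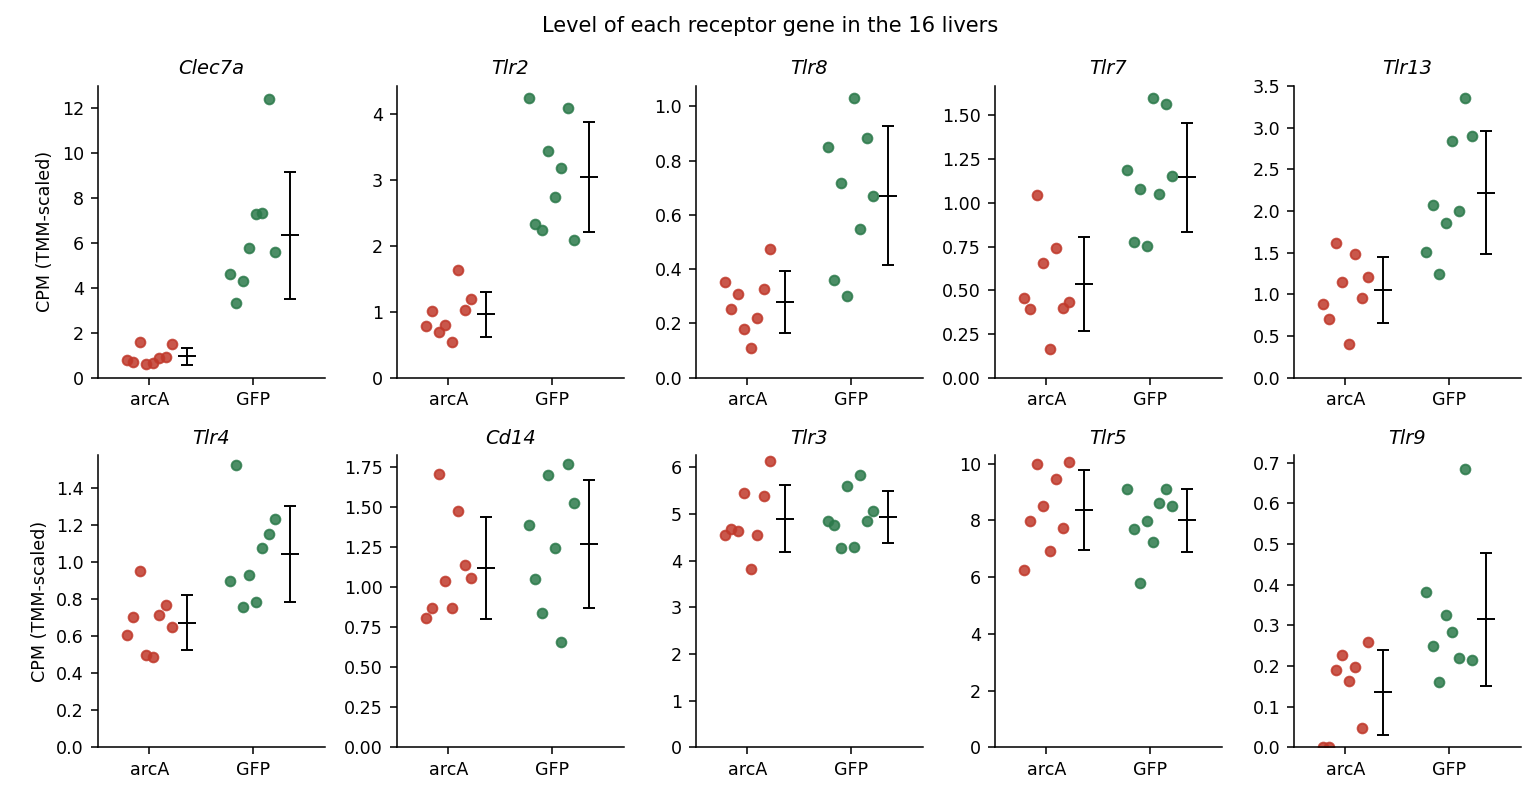
TMM-scaled CPM of the 10 receptor genes in each liver, with arcA livers in red and GFP livers in green; the black bar beside each group is its mean with SD (n = 8). The arcA points of Clec7a and Tlr2 all lie below the GFP points, the groups overlap for Tlr8, Tlr7, Tlr13, Tlr4 and Tlr9, and they share nearly the whole range for Tlr3, Tlr5 and Cd14.

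To show what lies in front of genes that moved and of one that did not pass the test, the 250 bases before the start are given for Clec7a and Tlr8, both lower, and for Tlr5. The sequences are from RefSeq (GRCm38.p6), written 5′ to 3′ along the gene's strand. A pair of motifs was searched on both strands: GAGGAA, the core bound by PU.1, a transcription factor of myeloid cells, and GAAANNGAA, the core of interferon response elements. Capitals mark GAGGAA as such and, where they read TTCCTC, the same core on the other strand; the capitals TTCAGTTTC are the interferon response core on the other strand.
Clec7a (chr6:129472780-129473029, minus strand): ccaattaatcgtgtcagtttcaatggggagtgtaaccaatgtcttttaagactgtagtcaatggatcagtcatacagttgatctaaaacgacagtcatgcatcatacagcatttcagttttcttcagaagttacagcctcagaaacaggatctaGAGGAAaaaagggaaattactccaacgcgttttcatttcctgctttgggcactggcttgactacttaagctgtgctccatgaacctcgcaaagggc
Tlr8 (chrX:167264330-167264579, minus strand): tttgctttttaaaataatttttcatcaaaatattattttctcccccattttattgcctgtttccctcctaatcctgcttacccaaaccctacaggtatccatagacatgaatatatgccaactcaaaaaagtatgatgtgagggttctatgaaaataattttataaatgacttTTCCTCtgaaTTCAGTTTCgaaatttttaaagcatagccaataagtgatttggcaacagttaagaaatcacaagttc
Tlr5 (chr1:182954538-182954787, plus strand): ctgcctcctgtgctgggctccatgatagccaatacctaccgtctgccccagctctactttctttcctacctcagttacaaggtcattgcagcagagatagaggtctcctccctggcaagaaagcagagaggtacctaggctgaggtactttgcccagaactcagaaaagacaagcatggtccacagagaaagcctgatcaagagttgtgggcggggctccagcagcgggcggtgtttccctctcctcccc
The Clec7a window held GAGGAA starting 96 bases before the start. The Tlr8 window held the PU.1 core 77 bases and the interferon response core 67 bases before the start, without overlap between them. Neither motif was in the Tlr5 window. RefSeq windows existed for 7 of the 10 genes, all but Tlr4, Tlr7 and Cd14. The PU.1 core was in 4 of these 7 (Clec7a, Tlr8, Tlr13 and Tlr9, not Tlr2, Tlr3 or Tlr5), against 23.3% of 32851 windows of the same length. For Tlr2, Tlr3 and Tlr13 the RefSeq start lies 159, 700 and 71 bases from the GENCODE start. Their windows thus lie partly, and that of Tlr3 wholly, within the gene as GENCODE gives it. The interferon response core was in 1 of the 7, Tlr8, against 7.13% of all windows. A match is a description of the letters and not evidence of binding.

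Clec7a, the beta-glucan receptor (chromosome 6, 129461591 to 129472779, minus strand, GRCm38), had the largest difference. Its level was 0.61 CPM in the lowest arcA liver, 0.823 at the median and 1.61 in the highest, against 3.32, 5.69 and 12.4 CPM in GFP livers. The highest arcA livers, arcA 3 with 1.61 and arcA 8 with 1.51 CPM, stayed below the lowest GFP liver, GFP 2, and GFP 7 stood well above the other GFP livers. The means were 0.956 ± 0.389 CPM in arcA and 6.34 ± 2.82 CPM in GFP livers (SD, n = 8 each). The log2 fold change was -2.72 (SE 0.278, adjusted p = 1.4e-05 by edgeR's quasi-likelihood test), and it was -2.51 without GFP 7. The GENCODE M21 annotation types Clec7a as a polymorphic pseudogene, a gene intact in some strains only.

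Tlr2, the surface receptor for bacterial lipoproteins (chromosome 3, 83836272 to 83841767, minus strand), pairs with Tlr1 or Tlr6. It had 0.543 CPM in the lowest arcA liver, 0.902 at the median and 1.63 in the highest, against 2.09, 2.96 and 4.24 CPM in GFP livers. Every arcA liver lay below every GFP liver, with arcA 6 nearest to GFP 8. On the log2 scale Tlr2 differed by -1.67 (SE 0.209, adjusted p = 4.7e-05 by edgeR's quasi-likelihood test).

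Tlr4 (chromosome 4, 66827584 to 66930284, plus strand) recognises lipopolysaccharide of Gram-negative bacteria together with Ly96, and Cd14 hands the ligand to that complex. Tlr4 had 0.489, 0.676 and 0.948 CPM in the lowest, median and highest arcA liver, against 0.759, 1.0 and 1.52 CPM in GFP livers. All 8 arcA livers were below the GFP median, and 6 were below the lowest GFP liver. On the log2 scale the difference was -0.64 (SE 0.189, adjusted p = 0.0344 by edgeR's quasi-likelihood test). This call was the least stable of the 6: without arcA 1, arcA 4, arcA 5, GFP 2, GFP 6, GFP 7 or GFP 8 alone, the value was -0.63 to -0.56 and the adjusted p 0.0574 to 0.0746. Cd14 had 0.808, 1.05 and 1.71 CPM in arcA livers against 0.658, 1.32 and 1.77 CPM in GFP livers, and the groups overlapped nearly completely. Its log2 fold change was -0.19 (95% interval -0.61 to 0.23, adjusted p = 0.650 by edgeR). Ly96, the partner that binds the lipid itself, had a log2 fold change of 0.06 (adjusted p = 0.880).

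Tlr5 (chromosome 1, 182954788 to 182976044, plus strand) recognises flagellin, the protein of bacterial flagella. It had 6.24, 8.26 and 10.1 CPM in the lowest, median and highest arcA liver, against 5.79, 8.24 and 9.10 CPM in GFP livers. The arcA livers split evenly around the GFP median, 4 below and 4 above. The difference was 0.06 on the log2 scale (95% interval -0.15 to 0.27, adjusted p = 0.790 by edgeR), and its sign turned to -0.09 when libraries were scaled on hepatocyte markers.

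Of the endosomal receptors, Tlr7 and Tlr8 are neighbours on the X chromosome (Tlr7 at 167304929 to 167330558, Tlr8 at 167242696 to 167264329, both minus strand). Tlr7 binds single-stranded RNA, as Tlr8 does in humans. Tlr7 had 0.163, 0.443 and 1.04 CPM in the lowest, median and highest arcA liver, against 0.751, 1.12 and 1.60 CPM in GFP livers. Only arcA 3 reached into the GFP range, and arcA 5 was lowest. For Tlr7 the log2 difference was -1.09 (SE 0.275, adjusted p = 0.0139 by edgeR). Tlr8 had 0.109, 0.281 and 0.476 CPM in arcA livers, against 0.301, 0.695 and 1.03 CPM in GFP livers. The overlap came from GFP 2 and GFP 4, the lowest GFP livers, and from 4 arcA livers that lay above GFP 4. The log2 fold change was -1.24 (SE 0.299, adjusted p = 0.0105 by edgeR), on counts of 4 to 22 per arcA library and 12 to 53 per GFP library.

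Tlr13 (chromosome X, 106143204 to 106160493, plus strand), a mouse receptor for bacterial ribosomal RNA, had 0.407, 1.05 and 1.61 CPM in arcA livers, against 1.24, 2.04 and 3.35 CPM in GFP livers. Only arcA 3 and arcA 6 reached above the lowest GFP liver, and GFP 7 was highest. The log2 fold change was -1.08 (SE 0.244, adjusted p = 0.00719 by edgeR). Tlr9, the receptor for unmethylated CpG DNA, had 0 to 12 counts per arcA library and 4 to 41 per GFP library, too few for the expression filter. Its level was 0, 0.176 and 0.259 CPM in the lowest, median and highest arcA liver, against 0.160, 0.267 and 0.684 CPM in GFP livers. All 8 arcA livers lay below the GFP median, and the fit without a filter gave -1.21 on the log2 scale with an adjusted p of 0.165.

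Tlr3 (chromosome 8, 45395665 to 45411080, minus strand) recognises double-stranded RNA in endosomes. It had 3.83, 4.66 and 6.14 CPM in arcA livers, against 4.27, 4.85 and 5.84 CPM in GFP livers, and the groups covered the same range. The log2 fold change was -0.01 (95% interval -0.21 to 0.18, adjusted p = 0.955 by edgeR). The antisense gene Gm45542 overlaps 381 exonic bases of Tlr3, and since the strand setting of the counting is not given, their reads cannot be told apart.

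**Figure D2:**
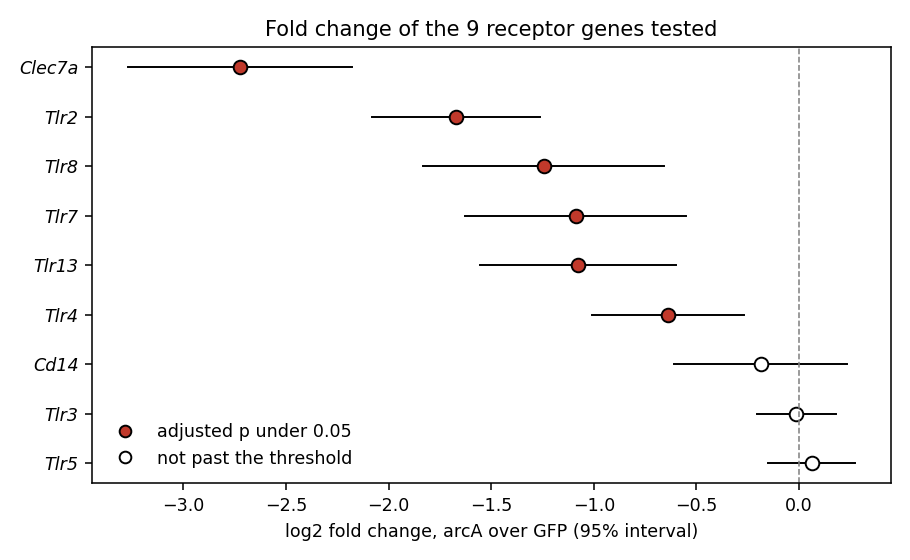
Log2 fold change of the 9 tested receptor genes, arcA over GFP, with 95% intervals; red points passed the adjusted p threshold of 0.05 and white points did not. The intervals of Cd14, Tlr3 and Tlr5 span 0, and Clec7a at -2.72 lies farthest from it.

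Whether the receptors fell by different amounts was asked for each of the 36 pairs of the 9 tested genes, by an exact two-sided permutation test of the log2 ratio of the pair over the 16 livers, adjusted over the 36 pairs. Of these, 23 pairs passed 0.05; the smallest p the design allows is 0.000155. The difference of Clec7a was larger than that of each of the other 8 genes, and its ratio to Tlr2, the nearest, differed by 1.0 on the log2 scale (Tlr2 over Clec7a, mean log2 ratio 0.02 in arcA and -0.99 in GFP livers, exact adjusted p = 0.00737). Tlr2 fell by more than Tlr4 by 1.05 on the log2 scale (exact adjusted p = 0.00404). Against Tlr7, Tlr8 and Tlr13, the difference of Tlr2 was -0.51, -0.52 and -0.57 and did not pass (exact adjusted p = 0.134, 0.131 and 0.0927). Tlr7, Tlr8 and Tlr13 differed from each other by at most 0.06 (exact adjusted p = 0.807 to 0.978). These ratios used log2 CPM with a prior count of 2, which shrinks differences of genes with few counts. The edgeR log2 fold changes of Tlr7, Tlr8 and Tlr13 were -1.09, -1.24 and -1.08. Tlr4 differed from Tlr3 and Tlr5 by 0.58 and 0.65 in size (exact adjusted p = 0.00412 and 0.00129), and from Cd14 by -0.44 (exact adjusted p = 0.0893). The pairs share livers and genes, so their p-values are not independent.

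Levels of different genes were compared only per kilobase of exon. In arcA livers Tlr5 was highest with 1.75 ± 0.295 CPM per kb, apart from Tlr3 with 0.942 ± 0.137, followed by Cd14 with 0.648 ± 0.183, Clec7a with 0.362 ± 0.147, Tlr2 with 0.318 ± 0.113 and Tlr13 with 0.244 ± 0.0923 (SD, n = 8). Tlr7, Tlr4, Tlr8 and Tlr9 followed with means of 0.131 to 0.0389 CPM per kb. In GFP livers Clec7a was highest with 2.40 ± 1.07 CPM per kb, followed by Tlr5 with 1.67 ± 0.231, Tlr2 with 1.01 ± 0.276, Tlr3 with 0.949 ± 0.107, Cd14 with 0.735 ± 0.231 and Tlr13 with 0.516 ± 0.171 (SD, n = 8). Apart from Tlr5 over Tlr3 in arcA livers, the ranges of all neighbours in both orders overlapped. Clec7a was above Tlr5 in 6 of 8 GFP livers and Tlr2 was above Tlr3 in 4 of 8, whereas in arcA livers both Clec7a and Tlr2 ranked below Tlr3 and Cd14.

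The shares of single genes in the Toll-like receptor RNA were compared as well, without a test. Over the 8 Toll-like receptor genes the summed level was 2.66, 3.64 and 4.39 CPM per kb in the lowest, median and highest arcA liver, against 3.71, 4.85 and 6.0 CPM per kb in GFP livers. Tlr5 and Tlr3 made up 68.5% to 82.0% of it in arcA livers (median 74.7%), against 47.2% to 57.2% in GFP livers (median 55.6%), with no overlap. Tlr2 made up 5.50% to 13% in arcA livers (median 8.88%), against 14.3% to 26.1% in GFP livers (median 20.3%). The share of Tlr4 was nearly the same, with medians of 3.50% in arcA and 3.57% in GFP livers. These shares sum to 100 within a liver, so a fall in some raises the others.

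**Figure D3:**
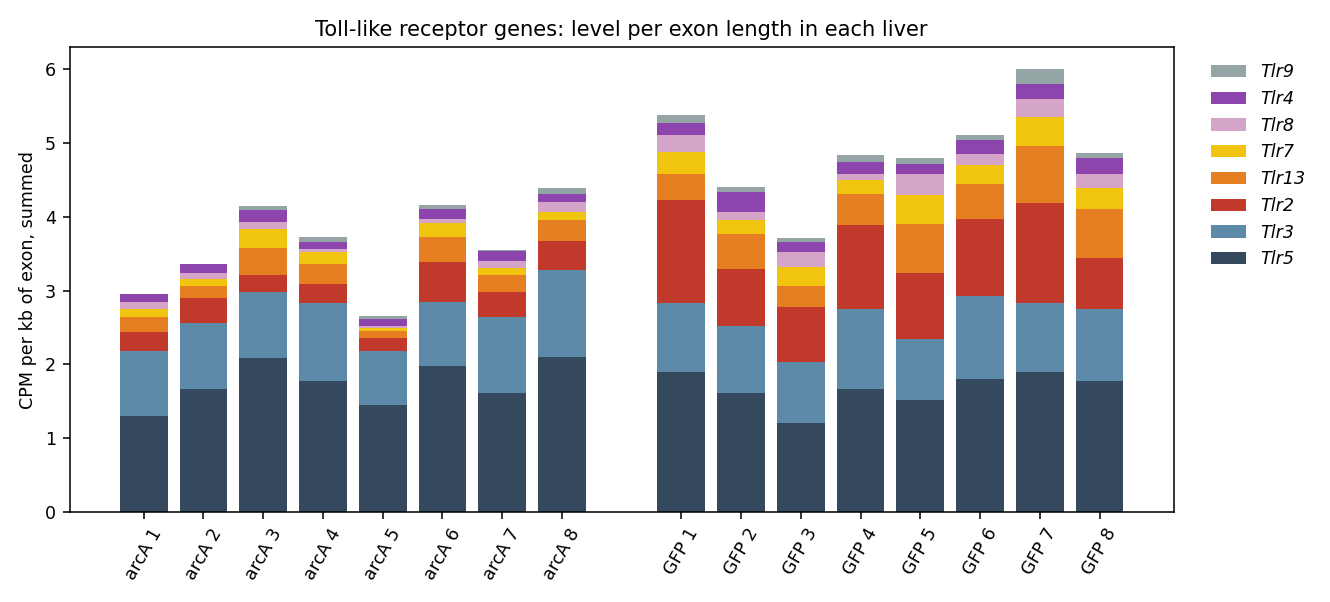
Level per kilobase of exon of the 8 Toll-like receptor genes, stacked for each liver, with the 8 arcA livers to the left of the 8 GFP livers. The Tlr5 and Tlr3 segments are of similar height in both groups, and the Tlr2, Tlr13, Tlr7 and Tlr8 segments are shorter in most arcA livers.

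Some markers of several cell types that can carry these receptors were lower in arcA livers as well, beside 6.57% of all genes called lower. The marker sums of Kupffer cells, macrophages, dendritic cells, neutrophils and sinusoidal endothelial cells overlapped between groups. The 8 Kupffer cell markers summed to 67.4 to 220.2 CPM in arcA and 139 to 239 CPM in GFP livers, with 2 of 8 lower, and the 7 macrophage markers to 74.4 to 191 CPM in arcA and 148 to 206 CPM in GFP livers, with 4 of 7 lower. The medians of these sums were 106 and 171 CPM for Kupffer cells and 135 and 177 CPM for macrophages, in arcA and GFP livers. Both arcA medians lay below the lowest GFP liver. The median log2 fold change was -0.56 over the Kupffer cell markers and -0.83 over the macrophage markers. The 7 monocyte markers summed to 4.29 to 8.18 CPM in arcA and 9.44 to 14.5 CPM in GFP livers, with 5 of 7 lower and no overlap of the sums. T cell markers (5 of 5 lower) summed to 0.31 to 1.47 CPM in arcA and 4.40 to 8.96 CPM in GFP livers. Cd8a had 0 to 4 and Cd3d 0 to 10 counts per arcA library, against 26 to 175 and 12 to 66 per GFP library. Cd8a and Cd3d thus passed the expression filter only through the GFP livers and could enter only as lower. B cell markers (1 of 1 tested lower) summed to 0.497 to 0.704 CPM in arcA and 0.919 to 3.79 CPM in GFP livers. Dendritic cell markers (1 of 4 tested lower) summed to 3.10 to 4.32 CPM in arcA and 3.87 to 6.92 CPM in GFP livers. Neutrophil markers, with none of 2 tested called, summed to 1.04 to 18.4 CPM in arcA (median 1.92) and 1.80 to 3.75 CPM in GFP livers (median 2.63). Sinusoidal endothelial markers (1 of 6 lower) summed to 63.7 to 92.7 CPM in arcA and 68.0 to 111 CPM in GFP livers, and stellate cell markers (4 of 5 lower) to 125 to 174 CPM in arcA and 187 to 217 CPM in GFP livers. The part of cell numbers in the receptor differences was not tested.

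Each receptor was also set against the sum of the 15 macrophage and Kupffer cell markers in the same liver, which was 142 to 410 CPM (median 242) in arcA and 287 to 428 CPM (median 362) in GFP livers. Clec7a had 2.68 to 4.60 CPM per 1000 CPM of these markers in arcA livers (median 3.76), against 9.85 to 29.0 in GFP livers (median 15.7), with no overlap. The median ratio of Tlr2 was 3.68 in arcA and 8.46 in GFP livers, and arcA 6 alone lay above the lowest GFP liver. Tlr13 had medians of 3.77 in arcA and 5.94 in GFP livers, Tlr7 of 1.92 and 3.23, and Tlr8 of 1.07 and 1.96, each with all 8 arcA livers below the GFP median and the ranges overlapping. Tlr4 had medians of 2.54 in arcA and 2.67 in GFP livers and Cd14 of 4.50 and 3.59. Tlr5, at 35.8 in arcA and 22.4 in GFP livers, and Tlr3, at 21 and 14.1, had higher medians in arcA livers, with overlapping ranges. No arcA liver was below the GFP median for Tlr5, and 1 was for Tlr3. For Tlr5 only arcA 1 and arcA 3 reached into the GFP range. The CPM of Tlr5 and Tlr3 did not pass the test between groups, whereas the marker sum they are divided by had a lower median in arcA livers. These ratios are a description without a test.

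**Figure D4:**
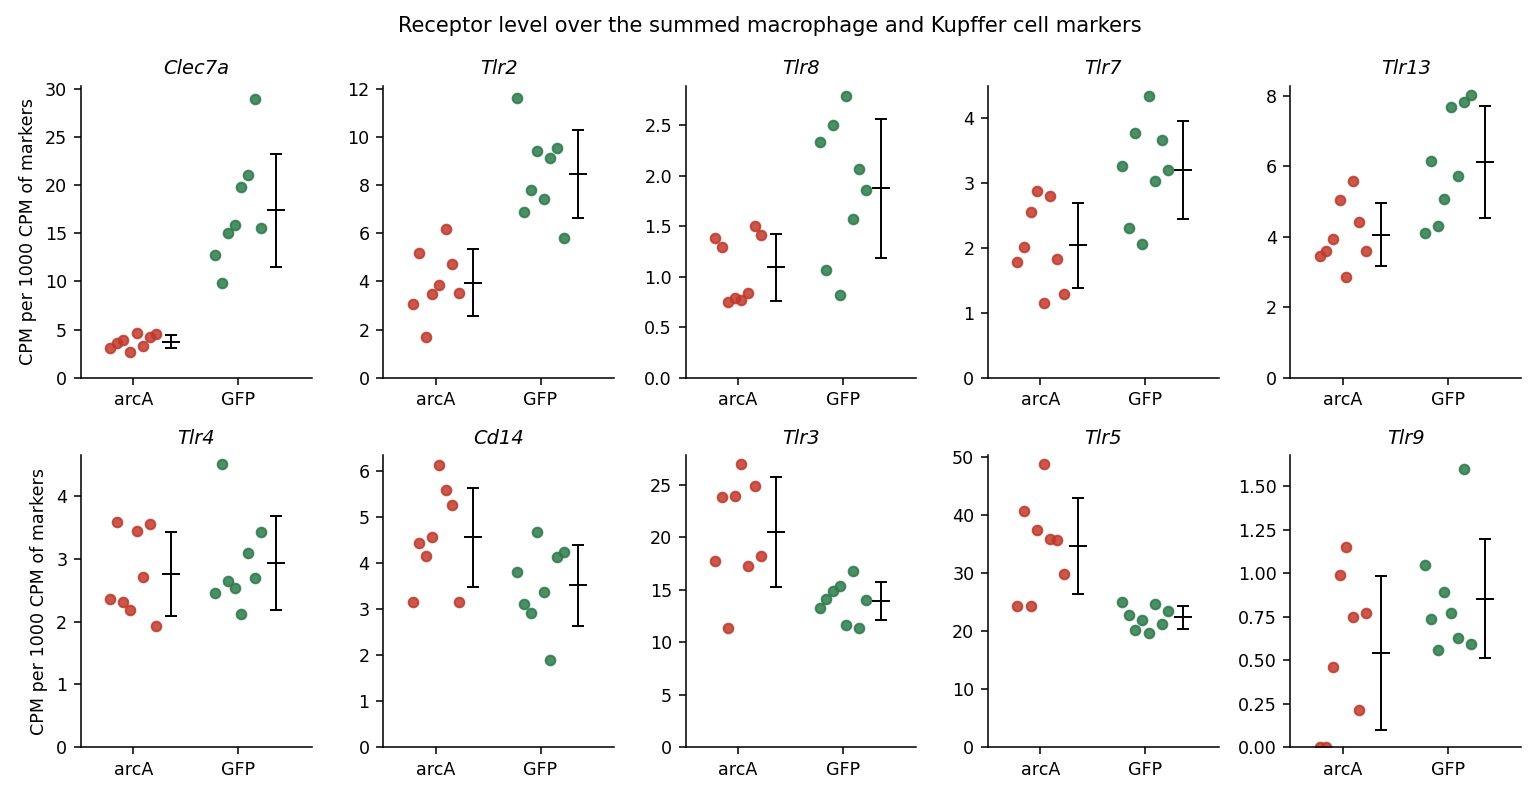
CPM of each receptor gene per 1000 CPM of the summed macrophage and Kupffer cell markers in the same liver, with arcA livers in red, GFP livers in green and the mean with SD of each group in black (n = 8). Clec7a keeps its groups apart at 2.68 to 4.60 against 9.85 to 29.0, the groups of Tlr2 nearly separate, and those of Tlr4 share their range.

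Between livers of one group, Tlr7 and Tlr13 varied together most among the 9 tested receptors (Pearson r 0.79, Spearman rho 0.68, over 16 livers after subtracting group means). Tlr13, Tlr7 and Clec7a followed the summed macrophage and Kupffer cell markers with r of 0.81, 0.75 and 0.71 (rho 0.71, 0.59 and 0.69). Tlr5 and Cd14, which did not pass the test between groups, followed them with r of 0.66 and 0.56 (rho 0.64 and 0.61). For Tlr8, Tlr4, Tlr3 and Tlr2, r was 0.52, 0.49, 0.42 and 0.35 (rho 0.53, 0.33, 0.18 and 0.41). The genes most like Tlr13 among 11160 were Slc11a1, a metal transporter of phagosomes, with r 0.91, Hcls1 with 0.90 and Csf2rb, a cytokine receptor chain, with 0.90. Those most like Tlr7 were Soat1 with 0.90, C1qb, a complement subunit made by macrophages, with 0.89 and Sema6d with 0.85, and those most like Clec7a were Serpina3g with 0.89, Msn with 0.89 and Ifi27l2b with 0.88. Tlr5 was closest to Cpne8 with 0.93, Ifi204 with 0.91 and Slc4a2 with 0.89, and Tlr3 to Otud6b with 0.89, Tmem65 with 0.86 and Fut11 with 0.85. Tlr2 was closest to Mapk6 with 0.85, Tmem41b with 0.82 and Sel1l3 with 0.79, Tlr4 to Pot1b with 0.86, Denr with 0.79 and Lrrc42 with 0.79, Tlr8 to genes that included Aggf1 and Fbxo46, each with 0.80, and Cd14 to Ctsa with 0.83, Map2k5 with 0.82 and Grk2 with 0.79. These correlations share libraries and depth, and the highest of many is high by selection.

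Genes around the receptors were counted by role in the same fit. Over all 10 lists 93 of 116 listed genes were tested, 27 were lower, 3 were higher and the median log2 fold change was -0.14, beside 6.57% lower, 4.26% higher and a median of 0.01 over all genes. Both other Toll-like receptors that could be tested were lower: Tlr12, which in mice recognises profilin of Toxoplasma, was at -1.52 on the log2 scale (adjusted p = 0.000901 by edgeR), and Tlr1, the partner of Tlr2, of -1.41 (adjusted p = 0.00805). Of 13 accessory and trafficking genes 5 were lower. They were the endosomal peptide transporter Slc15a3 (-0.94), Cd180 (-1.03) and its partner Ly86 (-0.82), the lysosomal protease Lgmn (-0.51) and the endolysosomal nuclease Pld4 (-0.76), and the chaperone Unc93b1, which carries endosomal receptors, had -0.11 and did not pass (adjusted p = 0.411). Only 3 of these 13 passed without arcA 1, 2, 4 or 5, or without GFP 1, 5 or 7.

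The shared signalling steps had 1 call among 5 tested adaptors, 2 among 21 kinases, ubiquitin ligases and transcription factors and 1 among 7 negative regulators, beside 10.8% of all genes called either way, so these counts say nothing particular about them. Of the adaptors, which carry or are linked to the TIR domain, Pik3ap1, which links these receptors to phosphoinositide 3-kinase, was lower (-0.27), and Myd88 (0.17, adjusted p = 0.201 by edgeR), Tirap (0.02) and Ticam1 (-0.15) did not pass. Among the kinases and their partners, Ikbke was lower (-0.49) and Tab2, a partner of the kinase TAK1, was higher (0.29). Irak4, Traf6 and Rela, the core of the route to NF-kappaB, had log2 fold changes of 0.04, -0.0044 and 0.04. Of the negative regulators, Sigirr, which dampens Toll-like and interleukin-1 receptor signals, was higher (0.23), and Tnfaip3 at -0.52 had an adjusted p of 0.0501.

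Beside Clec7a, 4 of 7 tested C-type lectins were lower: Clec4n (Dectin-2), which binds fungal mannans, by -1.17 on the log2 scale with no overlap between groups, Clec12a (-1.06), Clec1b (-0.78) and the Kupffer cell lectin Clec4f (-0.55). Of 7 genes of C-type lectin signalling 5 were lower, with a median of -0.77. Syk was at -0.98 on the log2 scale (SE 0.193, adjusted p = 0.00276 by edgeR), Fcer1g -0.77, Plcg2 -0.86, Card9 -1.22 and Prkcd -0.24. Bcl10 (0.03) and Malt1 (0.03), which act below Card9, did not pass. This count fell to 2 without arcA 1, arcA 2 or GFP 7, and to 3 without arcA 5, GFP 5 or GFP 6. Of 13 cytosolic sensor genes 3 were lower, the inflammasome protease Casp1 (-1.09), its adaptor Pycard (-0.71) and the DNA-sensing adaptor Tmem173 (-1.12). Of 7 scavenger receptors, Msr1 was lower (-0.56) and Colec12 higher (0.22), which says nothing particular about them. Over all genes tested, 6.57% were called lower and 4.26% higher, and 1.20% had every arcA liver below every GFP liver.

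Among 11 tested genes that these receptors are known to induce, 5 were lower, none was higher and the median was -0.85. Over all genes tested, 6.57% were called lower and 4.26% higher, with a median of 0.01. Cxcl10, an interferon-induced chemokine, had 0.769 to 1.60 CPM in arcA and 3.65 to 6.94 CPM in GFP livers, and its difference on the log2 scale was -2.13 (SE 0.168, adjusted p = 1.66e-07 by edgeR). The monocyte-attracting chemokine Ccl2 had 0.0905 to 0.69 CPM in arcA and 0.768 to 1.63 CPM in GFP livers (log2 fold change -1.73). Ccl4 and Ccl3 had 0 to 4 and 0 to 6 counts per arcA library, against 12 to 103 and 10 to 100 per GFP library, and log2 fold changes of -4.49 and -3.49. For these 4 chemokines every arcA liver lay below every GFP liver, as for 1.20% of all genes tested. Ccl4 and Ccl3 passed the expression filter only through the GFP livers, so they could enter only as lower. Both add to the count of 5 and to the median, and neither their calls nor their separation is independent support. The adhesion ligand Icam1 was the fifth (-0.85). Il1b (-0.97, adjusted p = 0.0741), Cxcl1 (0.51), Saa3 (0.42) and Lcn2 (1.90, adjusted p = 0.135) did not pass. The highest arcA livers of both Saa3 and Lcn2 were arcA 3 and arcA 8. Saa3 had a median of 2.07 CPM in arcA (highest 71.9) and 9.87 CPM in GFP livers, with 6 of 8 arcA livers below the lowest GFP liver. Lcn2 had a median of 92.0 CPM in arcA (highest 1528) and 102 CPM in GFP livers. The count was 8 without arcA 3 and 8, 8 with no filter and 2 with a filter of 1 CPM. Several of these chemokines are also made by T cells and other leukocytes, whose markers were lower, and the part of each source was not tested.

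**Figure D5:**
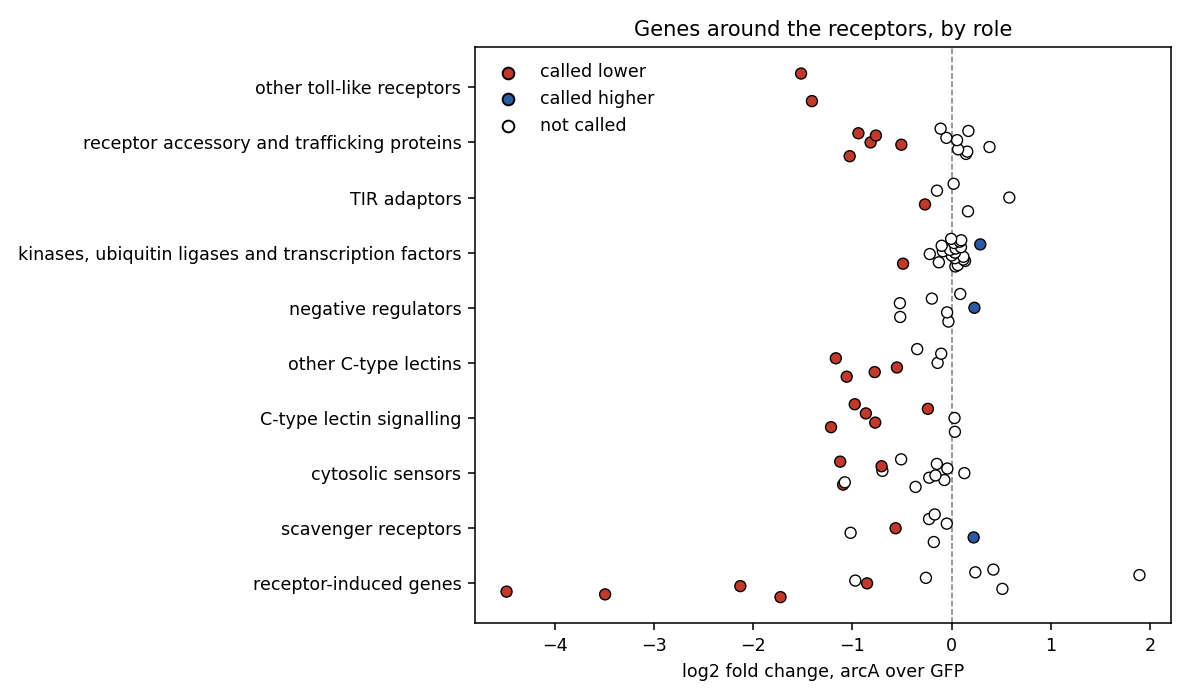
Log2 fold change, arcA over GFP, of the 93 tested genes around the receptors, 1 point per gene and 1 line per role; red points were called lower, blue points higher and white points not called. Genes of the other Toll-like receptors, C-type lectins and their signalling lie mostly below 0, whereas the kinases, ubiquitin ligases and transcription factors cluster around 0.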

How the data were processed

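The deposited table holds unnormalised read counts, with gene symbols in rows and libraries in columns. The authors ran bcl2fastq, STAR 2.5.1a and featureCounts 1.4.6-p5 (Subread) on GRCm38, per the submitters' processing notes; the sources used here name no annotation release, strand setting or handling of mates. Of counts from 1 to 20, 69.8% were even, so how many fragments a count stands for is unclear. Of 40757 lines, 348 exact copies were removed and the counts of 85 lines repeating a symbol were summed, leaving 40324 symbols. Trizol and oligo-dT were used for the RNA, per the labels' protocols. Nothing gives pools or batches, so handling shared by a group could not be told apart from the vector. The p-values set a difference between groups against the spread between livers of the same group.

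Groups came from the labels. The test was edgeR 4.0.16 (R 4.3.3; robust quasi-likelihood fit, TMM scaling, filterByExpr, group as the only term). CPM used TMM-scaled library sizes and log2 CPM a prior count of 2. Each SE was the size of the log2 fold change divided by the square root of the test's F. The 95% intervals used the fitted value, this SE and a normal quantile, so they are narrower than intervals from a t distribution. Exon lengths and coordinates are from GENCODE M21 by symbol. The receptors and the lists were chosen with earlier results of these data known. Named were all 10 receptors, up to 4 called genes with the smallest p per list, and the 3 genes most like each tested receptor with a mean of at least 1 CPM; Prkcd, Pld4, Icam1 and the genes given as not passing were named after their values were seen. One gene that the rule takes is not reported here. Alternatives were RLE scaling, library size alone, hepatocyte marker scaling, no filter, a minimum of 1 CPM in 8 or more libraries, DESeq2 1.42.0, limma 3.58.1 voom, a replicate block, halved counts, each library left out, and no GFP 2, 3 and 5. The fit without arcA 3 and 8 and the test of pairs of receptors were added after seeing the data. The calculation was tested on simulated counts.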

Additional observations from a re-analysis of the deposited data

Results flagged for a closer look

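In 20 groups of 8 values (10 receptor genes in each group of livers), 2 held a value far from the others by Dixon's test at the 95% level, which chance gives in about 1 group in 20. GFP 7 had 12.4 CPM of Clec7a, and the gap to the next GFP liver was 0.559 of the group's whole range. GFP 7 also had 0.684 CPM of Tlr9, with a gap of 0.578 of the range. Both genes had their highest value in the same liver.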

How the results depend on the processing

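Tlr2, Tlr7, Tlr8, Tlr13 and Clec7a kept their direction and their call under all alternatives in which they could be tested, and Cd14 passed in none (-0.34 to -0.10). Tlr4 did not pass with library size alone (-0.68, adjusted p = 0.0560), with no filter (-0.64, adjusted p = 0.0732) or without GFP 2, 3 and 5 (-0.66, adjusted p = 0.0525), and was -0.72 to -0.56 with 1 library left out. Tlr5, never called, was -0.091 with hepatocyte marker scaling, -0.0078 with limma voom, -0.056 without GFP 2, 3 and 5, -0.045 without arcA 3 and 8, and -0.00081 to 0.11 with 1 library left out, and Tlr3, never called, was -0.066 to 0.032 with 1 library left out and -0.16 to -0.01 under the other alternatives. The cause of these changes was not tested. The filter of 1 CPM left 6 receptors, of which 3 were lower, because Tlr4, Tlr7 and Tlr8 were no longer tested; the count was 5 or 6 otherwise. Genes around the receptors called higher numbered 1 with library size alone, 0 with hepatocyte marker scaling, 5 with limma voom and 5 without arcA 3 and 8, in place of 3, and 3 to 4 with 1 library left out. Over all genes 617 were higher and 951 lower, 39.3% of calls higher, against 253 and 800 (24.0%) with library size alone and 46 and 1918 (2.34%) with hepatocyte marker scaling, which moved the median of all genes to -0.16.

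Replicate numbers were not shown to pair the livers: deviations of same-numbered libraries correlated at -0.05 to 0.16, and 3 of 16 libraries correlated best with their own number. With the replicate block Tlr4 was -0.63 (adjusted p = 0.0599), 5 receptors were lower, and 3 genes each of the accessory and C-type lectin signalling lists were lower in place of 5. Depth limits Tlr9 and Tlr8 most, and counts without molecular identifiers are not independent molecules.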
